A study of Homo sapiens with 17 samples.

Results

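The polyamine synthesis and antizyme genes are 9 human genes chosen by name, ODC1, AMD1, SRM, SMS, SAT1, SMOX, OAZ1, OAZ2 and AZIN1. All 9 were found by symbol among the 19222 genes of the 1 h table, and 8 were found among the 9982 genes of each 2 h table, where SMOX is not listed. The study used TimeLapse sequencing (TL-seq), in which cells take up 4-thiouridine (s4U) and a chemical step makes the incorporated s4U read as C, so that reads with T-to-C conversions come from RNA made during the labeling. HEK-293T, a line of human embryonic kidney cells, was left untreated or given emetine, an alkaloid that stops ribosomes from moving along mRNA. In the 1 h experiment, 3 untreated libraries and 3 libraries with 1.8 µM emetine came from cells given 500 µM s4U, and 1 more library of each treatment came from cells without s4U. The 2 h experiment had 3 libraries each of untreated cells, of cells with a low dose (1.8 µM) and of cells with a high dose (240 µM), all recorded with 250 µM s4U. The labels name no genetic change in any group. No source states that replicates came from separate cultures, so p-values measure the spread between these libraries, which may be technical.

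Putrescine, spermidine and spermine are small positively charged molecules that bind RNA and are needed for growth. ODC1 makes putrescine from ornithine, AMD1 makes the aminopropyl donor, and SRM and SMS use that donor to make spermidine and spermine in turn. SAT1 and SMOX run the pathway backwards, by acetylation and by oxidation. Antizymes (OAZ1, OAZ2) bind ODC1 protein and bring it to the proteasome, AZIN1 is an inactive relative of ODC1 that captures antizyme, and full-length antizyme is made when the ribosome changes frame at a stop codon, which polyamines promote. Several of these mRNAs are known for control at the ribosome.

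The site of this frame change is shown because it is the feature that sets the antizyme mRNAs apart from the other 7. Each window is 30 bases of coding sequence on GRCh38, read from the mRNA strand 5′ to 3′, and the capitals mark the last codon of the first frame followed by the stop codon. The first base of that stop codon is left out of the annotated coding sequence, which puts the rest in the next frame.
OAZ1: cggtggtgcTCCTGAtgcccctcacccacc
OAZ2: ctgtggtgcTCCTGAtgcccctcacccact
The OAZ1 window is chr19:2271431-2271460 on the plus strand, with 68 codons before the omitted base at position 2271443. The OAZ2 window is chr15:64691498-64691527 on the minus strand, with 32 codons before the omitted base at position 64691515. The windows hold the same base at 28 of 30 positions. The letters TCCTGA alone are common, since 48.0% of 20039 annotated coding sequences hold them on the coding strand in some frame, whereas 8 genes of the annotation, OAZ1 and OAZ2 among them, leave out 1 base inside the coding sequence.

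In GENCODE 44 on GRCh38, ODC1 lies on chromosome 2 from 10439968 to 10448327 on the minus strand, AMD1 on chromosome 6 from 110874770 to 110898879 on the plus strand and SRM on chromosome 1 from 11054584 to 11060020 on the minus strand. SMS and SAT1 are both on the plus strand of chromosome X, from 21940709 to 21994837 and from 23783173 to 23786210. SMOX is on chromosome 20 from 4120980 to 4187747 on the plus strand, and AZIN1 is on chromosome 8 from 102826111 to 102893864 on the minus strand. OAZ1 spans 2269509 to 2273490 on the plus strand of chromosome 19, and OAZ2 spans 64687573 to 64703281 on the minus strand of chromosome 15. The canonical transcripts run from 1049 bases (SAT1) and 1148 bases (OAZ1) to 3423 bases (AMD1) and 4196 bases (AZIN1).

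Start codons upstream of the main one are a further feature that several members share. An ATG stands in the 5′ UTR of ODC1, OAZ2, AZIN1, AMD1, SAT1 and SMS, whereas none stands in that of OAZ1, SMOX or SRM. Of 15427 genes of the 1 h table with an annotated coding transcript, 42.4% have such an ATG. In AMD1 the upstream frame opens 11 bases from the start of the transcript and holds 6 codons before its stop. In ODC1 it holds 10 codons and opens 161 bases before the main start codon. AZIN1 has 3 upstream ATGs, with frames of 17, 16 and 9 codons, and its 3′ UTR holds 11 copies of ATTTA. AMD1 has 6 copies of ATTTA and ODC1 and SMOX have none, while 70.8% of the 15427 genes have at least 1. These counts describe the annotation and were not tied to any measured difference.

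Depth ran from 27416189 to 48852046 reads over the 8 libraries, and 81.1% to 82.3% of them were assigned to a gene. The members were read deeply, from 3216 reads over the 8 libraries for SMOX and 8028 for SAT1 to 223698 for OAZ1, and no library had fewer than 259 reads of any member. Emetine replicate 3 stood apart from the other libraries before any gene was considered. Its log2 deviations from its group mean had an SD of 0.28 over 11410 genes, against 0.11 to 0.17 in the other 5 libraries. These deviations went with transcript length (Spearman's rho 0.738 across genes, which are not independent). The other emetine libraries had −0.65 each, but deviations from a shared group mean cancel for each gene. The opposite sign there is therefore no separate finding about those libraries. Because emetine replicate 3 stood apart, the log2 fold changes of members in level are given with and without it. The HEK-293T markers VIM, KRT8, KRT18, PAX2, LHX1, NEFL and NEFM were all present, with a summed level of 938 to 1062 CPM (counts scaled to library size) in untreated and 773 to 928 CPM in emetine libraries with s4U. The part of this difference in the results below was not tested. Of markers of other cells, ALB stayed at or below 0.359 CPM in every library, and PTPRC, HBB, CD3E and INS were not listed.

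Per length of transcript, OAZ1 was the most abundant member in untreated cells, at 892 ± 45.2 CPM per kb (SD, n = 3). SRM followed at 571 ± 35.7 CPM per kb and ODC1 at 195 ± 6.05 CPM per kb. SMS (87.5 ± 4.84 CPM per kb) and AMD1 (82.6 ± 2.26 CPM per kb) were neighbours in this order whose ranges overlapped, although SMS was the higher within each untreated library. OAZ2 stood at 48.0 ± 1.48, SAT1 at 27.1 ± 2.42, AZIN1 at 20.2 ± 0.304 and SMOX at 6.06 ± 0.645 CPM per kb, each separate from the next over all 3 libraries. The antizyme OAZ1 was thus the highest and its inhibitor AZIN1 the next to lowest. The median of the 12697 genes with a matched length in the level test was 7.11 CPM per kb.

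Turnover differed widely between the members. The fraction new is the share of a gene's reads that came from RNA made in the labeling hour, estimated from a mixture of reads with and without conversions. The half-life was computed from it for each untreated library, under a steady state and labeling from the start of the hour. It was not corrected for cell growth and is a description without a test. SAT1 turned over fastest, with half-lives of 1.85, 2.05 and 1.59 h in untreated replicates 1, 2 and 3. SMOX followed with 2.81, 2.39 and 2.63 h. Both enzymes of the backward branch thus had half-lives below the median of 5.35 h over 10763 genes.

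Among the regulators and the synthesis enzymes, AMD1 (4.50, 2.93 and 2.48 h) and AZIN1 (4.92, 3.86 and 4.03 h) were also below that median in every untreated library. OAZ2 had half-lives of 10.5, 8.66 and 6.89 h, and ODC1 had 12.6, 10.6 and 7.39 h. SRM (14.7, 12.6 and 9.74 h) and OAZ1 (18.2, 14.6 and 11.2 h) were slower still. SMS had the longest, at 48.4, 24.3 and 21.3 h, from fractions new of 1.42% to 3.20%. The ranges had a break between SAT1 and SMOX, between AZIN1 and OAZ2 and between OAZ1 and SMS, whereas those of the other neighbours overlapped between libraries. Within each untreated library AMD1 was below AZIN1, and OAZ2, ODC1, SRM and OAZ1 kept this order, while SMOX and AMD1 changed places in untreated replicate 3. Of the 10763 genes, 86.7% had a lower untreated fraction new than SAT1, 71.8% a lower one than AMD1 and 2.73% a lower one than SMS. ODC1, whose protein is known for a very short life, thus had an mRNA with a lower fraction new than most genes, with 25.8% of genes below it.

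**Figure D1:**
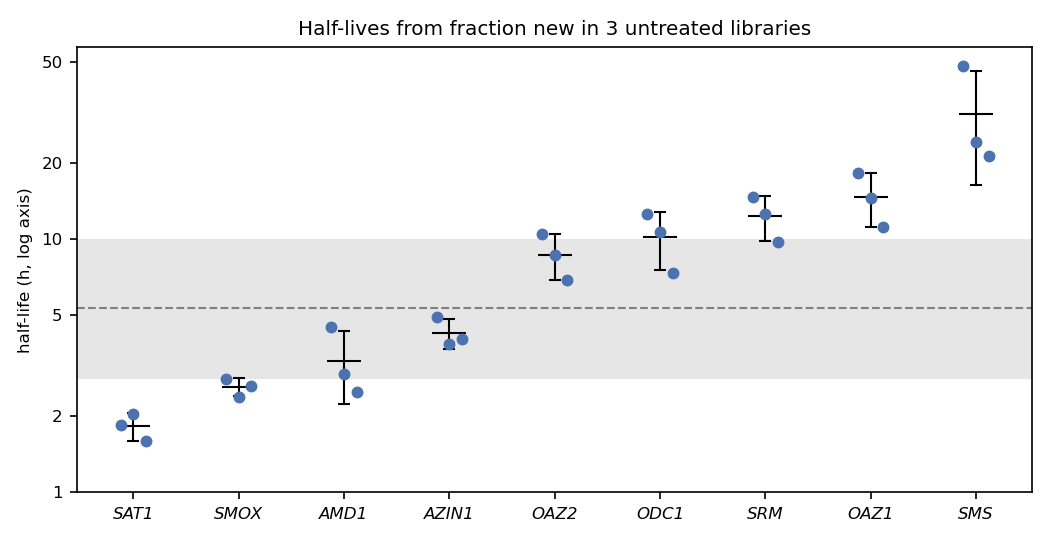
Half-life in hours on a log axis for each of the 9 genes, ordered by mean. Points are untreated libraries with s4U, horizontal marks and error bars are mean ± SD (n = 3), the dashed line is the median of 10763 genes (5.35 h) and the grey band its middle 50% of genes. SAT1 lies at 1.59 to 2.05 h and SMS at 21.3 to 48.4 h.

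The libraries themselves shared a part of this spread. Untreated replicate 1 gave the lowest fraction new for 8 of the 9 members, and the median fraction new over 10763 genes was 9.26% in that library, 12.3% in untreated replicate 2 and 14.7% in untreated replicate 3. The emetine libraries had medians of 10.7%, 11.0% and 10.3%. The part of these library medians in the differences of members was measured only by centering each library on its median logit.

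The comparison of emetine with untreated cells asks how 1 h with 1.8 µM emetine changed the amount and the age of these mRNAs. The paper reports that this low dose induces ribosome collisions. None of the 9 members passed an adjusted p of 0.05 in edgeR's quasi-likelihood test of the level, nor did any in the limma tests of the fraction new, of the labeled and of the unlabeled reads. Over all genes tested, 2.46% were called for the level, 5.05% for the fraction new, 0.892% for labeled and 7.40% for unlabeled reads, so a count of 0 among 9 is near the background. At an unadjusted p under 0.05, the members numbered 3 for the level (all genes, 21.3%), 2 for the fraction new (16.5%), 4 for labeled reads (12.2%) and 2 for unlabeled reads (26.5%). DESeq2's Wald test also called 0 members for the level, where 820 of 13776 genes were called higher and 156 lower. The smallest p that an exact permutation of 3 against 3 libraries allows is 0.1. A missed threshold does not show that the groups were alike, and the standard errors of the log2 fold changes in level ran from 0.095 to 0.16.

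These are bulk libraries, in which fewer cells that express a gene and less RNA per cell cannot be told apart. The groups did not overlap in level for 7 members (34.7% of all genes), 5 of them lower and 2 higher with emetine. The 2 higher ones, AZIN1 and AMD1, have the longest transcripts of the members (4196 and 3423 bases). The groups did not overlap in fraction new for 4 members (19.0% of all genes), in labeled reads for 4 (14.6%) and in unlabeled reads for 6 (40.2%). The median log2 fold change of the members was −0.19 in level, against 0.030 over all genes tested. For the fraction new the median change in logit was −0.064 among members and −0.16 over all genes.

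ODC1, which makes putrescine, had 493, 488 and 465 CPM in the untreated and 439.9, 448 and 382 CPM in the emetine libraries. All 3 emetine libraries lay below all untreated ones. The log2 fold change was −0.19 (SE 0.10, adjusted p = 0.300, edgeR), and −0.11 without emetine replicate 3. The libraries without s4U, 1 per treatment, gave 450.0 and 450.0 CPM. The fraction new stood the other way, at 5.36%, 6.31% and 8.96% in untreated against 9.26%, 10.5% and 10.9% in emetine libraries. Again the groups did not overlap, but untreated replicate 3 was close to emetine replicate 1. The logit changed by 0.45 (SE 0.22, adjusted p = 0.266, limma). Labeled ODC1 reads were 26.4, 30.8 and 41.6 CPM in untreated and 40.7, 46.9 and 41.8 CPM in emetine libraries, which overlap. Unlabeled reads were 467, 457 and 423 CPM against 399, 401 and 341 CPM, with no overlap (log2 change −0.24, SE 0.11, adjusted p = 0.189, limma).

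AMD1, the decarboxylase for S-adenosylmethionine, had 289, 284 and 274 CPM in untreated and 319, 322 and 377 CPM in emetine libraries. Emetine libraries with s4U were all higher, and emetine replicate 3 was the highest. The log2 fold change was 0.26 (SE 0.099, adjusted p = 0.198, edgeR). Without s4U the order was opposite, with 304 CPM in the untreated and 272 CPM in the emetine library, and no test is possible on 1 library each. Its fraction new was 14.3%, 21.1% and 24.4% against 13.7%, 14.4% and 16.04%, so that only untreated replicate 1 lay within the emetine range. The logit changed by −0.35 (SE 0.21, adjusted p = 0.446, limma). The unlabeled reads were 248, 224 and 207 CPM in untreated and 275, 275 and 316 CPM in emetine libraries. This was the lowest adjusted p of any member in these 4 tests (log2 change 0.35, SE 0.11, adjusted p = 0.0882, limma). Labeled AMD1 reads overlapped between groups, at 41.3, 59.9 and 66.8 CPM against 43.7, 46.3 and 60.4 CPM.

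SRM, the spermidine synthase, had 678, 714 and 767 CPM in untreated and 591, 639.6 and 415 CPM in emetine libraries. The groups did not overlap, and emetine replicate 3 was far below the other emetine libraries. The log2 fold change was −0.39 (SE 0.16, adjusted p = 0.217, edgeR) with it and −0.22 without it. The libraries without s4U gave 666 CPM untreated and 618 CPM with emetine. The fraction new of SRM overlapped, at 4.59%, 5.36% and 6.87% against 4.94%, 4.85% and 5.90% (change in logit −0.064, SE 0.22, adjusted p = 0.941, limma). Both labeled and unlabeled reads of SRM were lower in every emetine library. Labeled reads were 31.1, 38.3 and 52.7 CPM against 29.2, 31.0 and 24.5 CPM, a narrow gap between untreated replicate 1 and emetine replicate 2. Unlabeled reads were 647, 675 and 715 CPM against 562, 609 and 391 CPM, lowest in emetine replicate 3.

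SMS, the spermine synthase, had 155, 152 and 139.5 CPM against 131, 139 and 104 CPM, a narrow gap between untreated replicate 3 and emetine replicate 2. The log2 fold change was −0.26 (SE 0.12, adjusted p = 0.249, edgeR), and −0.14 without emetine replicate 3. Its fraction new was low in all 6 libraries and overlapped, at 1.42%, 2.82% and 3.20% against 1.56%, 2.23% and 1.95%. Without s4U, SMS stood at 126 CPM untreated and 129 CPM with emetine, both below the untreated libraries with s4U.

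**Figure D2:**
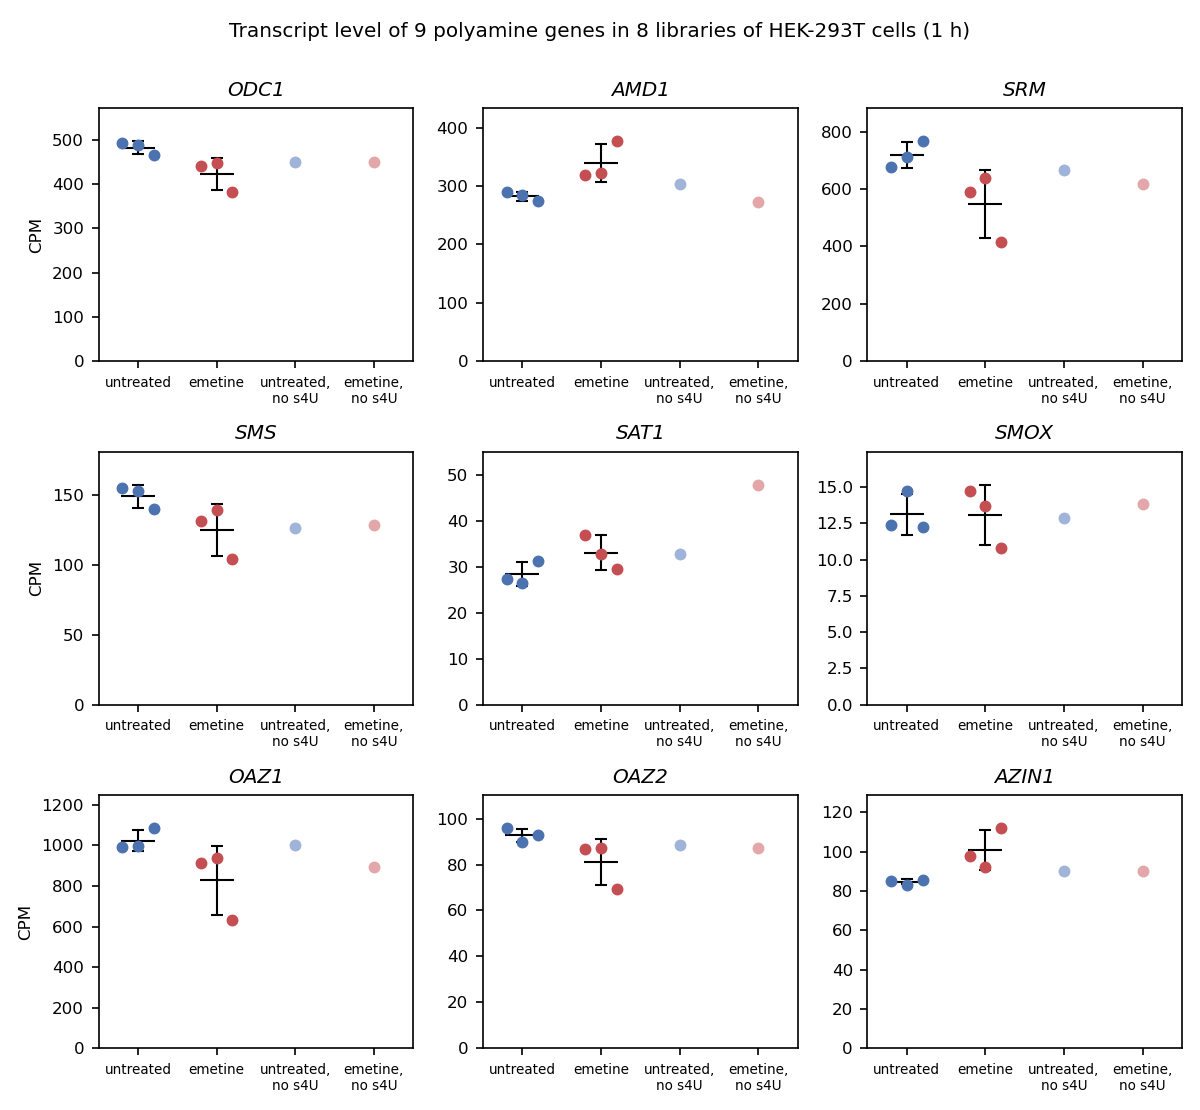
Transcript level in CPM of each gene in the 8 libraries of the 1 h experiment. Points are libraries, horizontal marks and error bars are mean ± SD (n = 3), and the libraries without s4U are single points. AMD1 and AZIN1 are higher and ODC1, SRM, SMS, OAZ1 and OAZ2 lower in all 3 emetine libraries with s4U, and none passed the test.

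SAT1, the acetyltransferase that starts polyamine export and breakdown, had 27.4, 26.5 and 31.3 CPM in untreated and 36.9, 32.8 and 29.4 CPM in emetine libraries. The groups overlapped through emetine replicate 3, and the log2 fold change was 0.22 (SE 0.12, adjusted p = 0.302, edgeR). It was 0.30 without that library and 0.13 without emetine replicate 1. In cells without s4U, SAT1 stood at 32.7 CPM (771 reads) untreated and at 47.8 CPM (1517 reads) with emetine, which was 1.46 times as much in single libraries. The fraction new of SAT1 was 31.3%, 28.7% and 35.3% in untreated libraries and 43.2%, 43.5% and 44.6% in emetine libraries. Every emetine library was above every untreated one. The logit changed by 0.52 (SE 0.22, adjusted p = 0.187, limma). Labeled SAT1 reads were 8.57, 7.62 and 11.0 CPM against 15.9, 14.3 and 13.1 CPM, with no overlap (log2 change 0.65, SE 0.24, adjusted p = 0.182, limma). Unlabeled SAT1 reads overlapped, at 18.8, 18.9 and 20.3 CPM against 20.9, 18.5 and 16.3 CPM.

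SMOX, the spermine oxidase, was the least abundant member, at 12.4, 14.7 and 12.2 CPM untreated and 14.8, 13.7 and 10.8 CPM with emetine. Both the level and the fraction new overlapped between groups. The log2 fold change was −0.0032 (SE 0.15, adjusted p = 0.992, edgeR), and 0.12 without emetine replicate 3. Its fraction new was 21.8%, 25.2% and 23.2% against 22.3%, 20.6% and 18.9%, with counting errors of 1.84 to 2.86 points. The backward branch thus held a member with separate labeled reads in the groups and a member whose groups overlapped in all 4 measures.

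OAZ1, the main antizyme, had 993, 996 and 1084 CPM in untreated and 912, 937 and 634 CPM in emetine libraries. The emetine libraries were all lower, most of all replicate 3. The log2 fold change was −0.31 (SE 0.16, adjusted p = 0.277, edgeR), and −0.14 without that library. Without s4U it was 999.8 CPM untreated and 894 CPM with emetine. The fraction new of OAZ1 was 3.73%, 4.64% and 6.01% against 4.42%, 4.90% and 5.03%, so the emetine libraries lay inside the untreated range. The change in logit was 0.015 (SE 0.23, adjusted p = 0.988, limma).

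OAZ2, a second antizyme with the same frame-change site, had 95.7, 90.0 and 92.7 CPM against 86.6, 87.1 and 69.5 CPM. The groups did not overlap (log2 fold change −0.19, SE 0.11, adjusted p = 0.301, edgeR). Without emetine replicate 3, which was the lowest, the log2 fold change was −0.092. Its fraction new was 6.41%, 7.69% and 9.58% in untreated and 5.95%, 5.95% and 5.34% in emetine libraries, all lower. The logit changed by −0.33 (SE 0.22, adjusted p = 0.506, limma). Labeled OAZ2 reads were 6.13, 6.92 and 8.88 CPM against 5.15, 5.18 and 3.71 CPM (log2 change −0.59, SE 0.26, adjusted p = 0.310, limma). Unlabeled reads were 89.6, 83.1 and 83.8 CPM against 81.4, 81.9 and 65.8 CPM, so that the emetine libraries of OAZ2 lay below the untreated ones in all 4 measures (0.948% of 10763 genes). Whether the antizymes differed from each other in this change was not tested.

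AZIN1, the antizyme inhibitor, stood on the other side in level, at 84.9, 83.3 and 85.8 CPM untreated and 98.1, 92.2 and 112 CPM with emetine. The groups did not overlap (log2 fold change 0.25, SE 0.095, adjusted p = 0.202, edgeR), and the log2 fold change was 0.17 without emetine replicate 3. In the libraries without s4U it was 90.2 CPM in both. Its fraction new was 13.1%, 16.4% and 15.8% against 18.0%, 17.1% and 18.2%, again without overlap (change in logit 0.20, SE 0.21, adjusted p = 0.729, limma). Labeled reads were 11.2, 13.7 and 13.6 CPM against 17.7, 15.8 and 20.3 CPM (log2 change 0.47, SE 0.23, adjusted p = 0.395, limma). Unlabeled reads were also higher in each emetine library, so the emetine libraries of AZIN1 lay above the untreated ones in all 4 measures (0.121% of 10763 genes). The 4 measures are not independent, since labeled and unlabeled reads were computed from the level and the fraction new. The other 7 members overlapped in at least 1 measure.

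**Figure D3:**
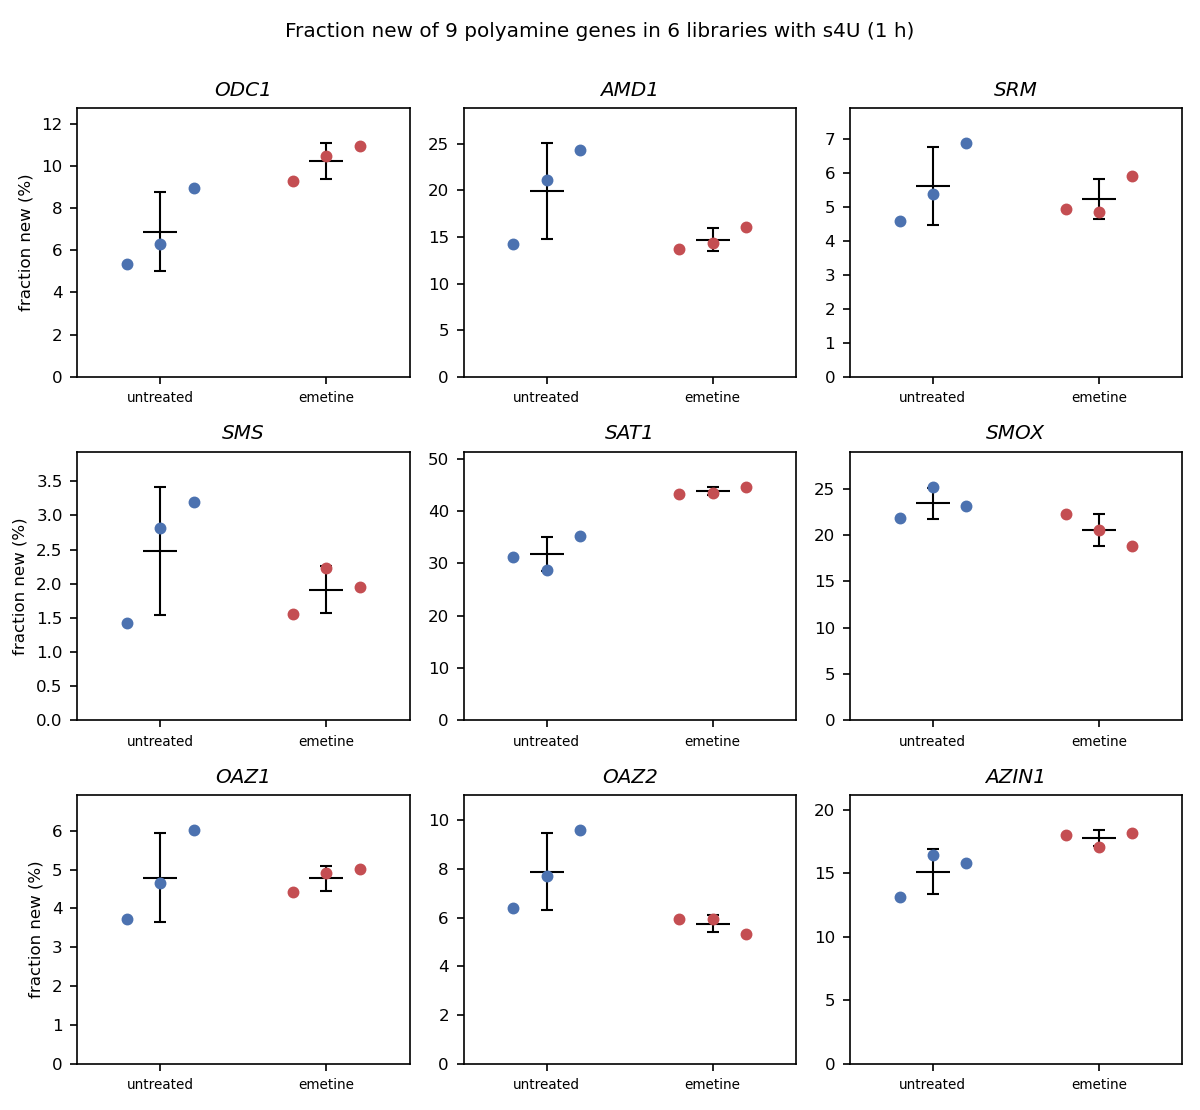
Fraction new in percent of each gene in the 6 libraries with s4U. Points are libraries, and horizontal marks and error bars are mean ± SD (n = 3). Emetine libraries lie above all untreated ones for ODC1, SAT1 and AZIN1 and below them for OAZ2, and overlap for the other 5.

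A simpler count from the same reads is the share with at least 2 conversions. Reads with at least 2 conversions made up 26.6%, 24.8% and 28.2% of SAT1 reads in untreated and 35.7%, 38.6% and 34.5% in emetine libraries. For ODC1 they made up 4.76%, 5.72% and 7.30% against 7.69%, 9.24% and 9.10%. In the libraries without s4U the same share was at most 0.209% for any member, the value of AZIN1 with emetine, where for SAT1 there were 0 such reads among 771 and 1517. The order of these shares between libraries needed no estimate of the conversion rates. The shares still depend on how often new RNA is converted, which was estimated at 8.49% to 9.53% of T positions.

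Without emetine replicate 3, 3 of the 9 members passed in level (14.5% of all genes). AMD1 (log2 fold change 0.19, adjusted p = 0.0343) and SAT1 (0.30, adjusted p = 0.0305) were higher and SRM (−0.22, adjusted p = 0.0341) was lower in edgeR's test. In unlabeled reads AMD1 (log2 change 0.29, adjusted p = 0.0150) and SRM (−0.21, adjusted p = 0.0362) passed in limma, among 17.1% of all genes. In fraction new and labeled reads 0 members passed without this library. With a smooth trend on transcript length removed from each library, AMD1 (0.26, adjusted p = 0.0460) and SAT1 (0.51, adjusted p = 0.0138) passed in level, among 8.83% of all genes. The log2 fold changes of ODC1 (−0.11), SRM (−0.16), SMS (−0.089), OAZ1 (−0.051), OAZ2 (−0.058) and AZIN1 (0.20) were then each smaller in size than in the main fit, and did not pass. The part of length in these differences was not tested.

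Whether ODC1 and SAT1 passed in fraction new depended on centering and on weighting, while their estimates moved less. With each library centered on its median logit, ODC1 (change in logit 0.58, adjusted p = 0.0176) and SAT1 (0.64, adjusted p = 0.0271) were higher with emetine in limma, where 8.12% of all genes were called. With observations weighted by read count, ODC1 (0.48, adjusted p = 0.0139) and SAT1 (0.53, adjusted p = 0.04997) also passed, among 5.05% of all genes, the latter at the edge of the threshold. In centered labeled reads ODC1 (log2 change 0.54, adjusted p = 0.0176), AZIN1 (0.60, adjusted p = 0.0192) and SAT1 (0.78, adjusted p = 0.00571) passed, among 4.04% of all genes. Untreated replicate 1 also decided calls. Without it, AMD1 was lower (change in logit −0.53, adjusted p = 0.0226) and SAT1 higher (0.51, adjusted p = 0.0271) in fraction new, where 23.8% of all genes passed. In labeled reads without it, OAZ2 (log2 change −0.70), SRM (−0.67) and SMS (−0.78) were lower and SAT1 (0.62) higher, with adjusted p from 0.0126 to 0.0261 in limma and 16.7% of all genes called.

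**Figure D4:**
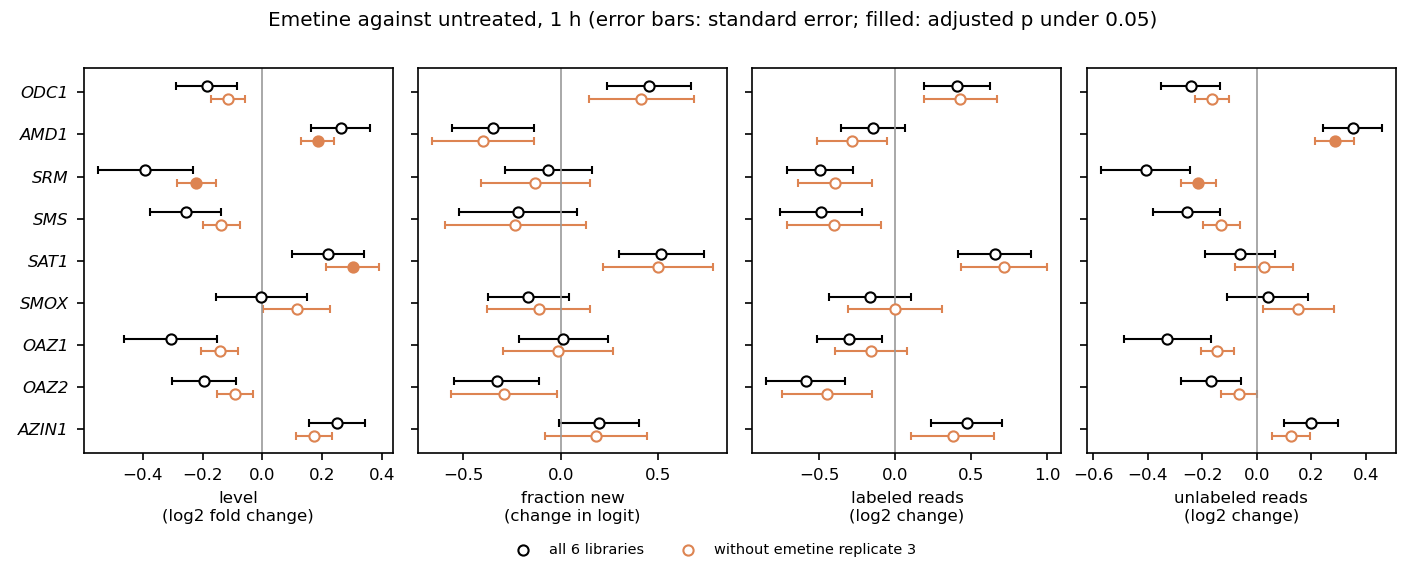
Change with emetine for each gene in level (log2 fold change), fraction new (change in logit), labeled and unlabeled reads (log2 change), with all 6 libraries (black) and without emetine replicate 3 (orange). Error bars are standard errors and filled points have an adjusted p under 0.05. No black point is filled, and without emetine replicate 3 the filled points are AMD1, SRM and SAT1 in level and AMD1 and SRM in unlabeled reads.

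All levels above are relative to the other genes of a library. Scaling to the spike-in reads moved the median log2 fold change of all genes from 0.030 to 0.71. These reads made up 0.667%, 0.480% and 0.728% of the untreated and 0.304%, 0.666% and 0.408% of the emetine libraries with s4U. The authors describe spike-ins added by cell count for the 2 h libraries, not for the 1 h ones. On the spike-in scale all 9 members had a positive log2 fold change, from 0.27 for SRM to 0.95 for AZIN1 and AMD1, and 0 passed. The SEs of members were 0.44 to 0.48 on that scale, against 0.095 to 0.16 in the main fit. Relative to the shift, AZIN1 (0.24), AMD1 (0.24) and SAT1 (0.22) stayed above the median gene and the other 6 below it, from −0.053 for SMOX to −0.44 for SRM.

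At 2 h only the authors' mean of normalized counts over all libraries of a table was used, which pools untreated and emetine-treated cells and has no SD here. Per kb of transcript, OAZ1 again came first, with 7531 normalized counts. AMD1 followed with 2985 and ODC1 with 1621, ahead of SRM (961), SMS (953), AZIN1 (905), SAT1 (872) and OAZ2 (730.3). AMD1 stood above ODC1 and SRM in this table and below both at 1 h. The 1 h libraries were made with a kit for mRNA and the 2 h libraries with a kit for total RNA, and the tables were normalized separately. The s4U dose was 500 µM at 1 h and 250 µM at 2 h, and 240 µM emetine was used at 2 h only. Kit, time, s4U dose, emetine dose and pooling cannot be told apart.

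The other genes of polyamine biology were taken as a list of 24, from arginases and methionine adenosyltransferases to polyamine transporters and the enzymes that put hypusine on EIF5A. Of these, 20 were tested for the level and 15 for the fraction new, and none passed in either direction in the 4 tests. At an unadjusted p under 0.05, 5 were lower and 0 higher in level (edgeR; all genes in either direction, 21.3%). In limma 2 were lower and 0 higher in fraction new (16.5%), 3 lower and 0 higher in labeled reads (12.2%), and 4 lower and 1 higher in unlabeled reads (26.5%). DESeq2's Wald test called 1 of the list, MAT2A, lower in level, where 820 of 13776 genes were called higher and 156 lower. Without emetine replicate 3, edgeR called SLC3A2 higher and ATP13A2, EIF5A and MAT2A lower, among 14.5% of all genes. With the length trend removed it called SLC3A2 higher and ATP13A2 and MAT2A lower, among 8.83% of all genes. MAT2A, which makes S-adenosylmethionine and is named here after its values were seen, had 404, 438 and 369.9 CPM in untreated and 303, 326 and 296 CPM in emetine libraries. Its groups did not overlap (log2 fold change −0.39, SE 0.10, adjusted p = 0.0882, edgeR). The median log2 fold change of the list was −0.022 in level and the median change in logit −0.15 in fraction new, close to the −0.16 of all genes. The 3 with the smallest p in fraction new were DOHH, SLC3A2 and SAT2. DOHH, which completes hypusine, had a fraction new of 19.2%, 27.9% and 27.1% in untreated and 17.8%, 14.8% and 13.1% in emetine libraries. All emetine libraries were lower (change in logit −0.60, SE 0.21, adjusted p = 0.0834, limma), and DOHH passed without untreated replicate 1 (−0.75, adjusted p = 0.00951), where 23.8% of all genes did. SLC3A2, a subunit of amino acid transporters, had 28.2%, 36.3% and 42.8% against 24.98%, 26.3% and 25.8% (change in logit −0.47, SE 0.22, adjusted p = 0.246, limma). SLC3A2 passed in limma when weighted by read count (−0.44, adjusted p = 0.0310), when centered (−0.34, adjusted p = 0.0455) and without untreated replicate 1 (−0.63, adjusted p = 0.0121). In these settings 5.05%, 8.12% and 23.8% of all genes passed, in the same order. SAT2, a relative of SAT1, had 9.004%, 11.8% and 10.6% against 6.89%, 6.72% and 11.0% (change in logit −0.29, SE 0.22, adjusted p = 0.583, limma).

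MYC, a known activator of ODC1 transcription, differed in level where ODC1 did not pass. It had 194, 184 and 194 CPM in untreated and 353, 321 and 396 CPM in emetine libraries, a log2 fold change of 0.90 (SE 0.10, adjusted p = 0.00674, edgeR). Without any 1 of the untreated libraries the adjusted p was 0.0691 to 0.0936, with log2 fold changes of 0.88 to 0.92. Scaled to spike-in reads the log2 fold change was 1.61 (adjusted p = 0.0653). The libraries without s4U gave 212 CPM untreated and 482 CPM with emetine. Its fraction new was 67.8%, 80.0% and 85.0% against 62.6%, 63.5% and 69.8%, which overlap (change in logit −0.65, SE 0.27, adjusted p = 0.159, limma). Labeled MYC reads were 131, 147 and 165 CPM against 221, 204 and 276 CPM, with no overlap (log2 change 0.65, SE 0.19, adjusted p = 0.0689, limma). Unlabeled MYC reads were also higher with emetine (log2 change 1.58, SE 0.23, adjusted p = 0.00519, limma). That call was lost without emetine replicate 3, where the log2 change was 1.60 with a wider SE of 0.39 (adjusted p = 0.0857). The difference between the changes of MYC and ODC1 was not tested.

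Genes whose fraction new was most like that of a member over the 6 libraries were found among the other 10762 genes by the root mean square difference of logits. Nearest to ODC1 were SNRPA1 (0.065) and FUCA1 (0.083), nearest to AMD1 were MKRN2 (0.045) and CKS2 (0.048), and nearest to OAZ1 were PCBP2 (0.037) and PDIA6 (0.060). SNRPA1 had 5.59%, 6.04% and 8.56% in untreated and 8.75%, 9.51% and 10.4% in emetine libraries, close to ODC1 in each. MKRN2 had 14.1%, 21.0% and 24.9% against 14.7%, 15.1% and 15.8%. The likeness describes these libraries and includes what all genes of a library share.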

How the data were processed

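After adapter removal with cutadapt, the authors aligned the reads to hg38 (hisat-3n) and used bam2bakR to count the T-to-C conversions and T positions of each read. The deposited 1 h table holds whole read counts without normalization. For 2 h, the signal values used are the authors' means of normalized counts (DESeq2, spike-in size factors), and their fold changes and p-values were not used. The authors' spike-in size factors enter those means and were not used elsewhere. At 1 h, spike-in reads scaled the levels only in an alternative. Libraries were grouped by their labels.

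Reads were summed per gene. Levels were tested with edgeR 4.0.16 (TMM, robust quasi-likelihood) for 13776 genes with more than 100 counts. The fraction new, the weight of a binomial mixture with background rates from the libraries without s4U (0.0504% and 0.0521%) and new-read rates of 8.49% to 9.53%, was bounded at 0.001 and 0.999 and tested as a logit with limma 3.58.1 (trend, robust) for the 10763 genes that had 100 reads or more in each of the 6 libraries. CPM times fraction new (labeled) or its complement (unlabeled) plus 0.5 was tested on the log2 scale. CPM of levels were scaled over 8 libraries, and of labeled and unlabeled reads over 6. All p-values are two-sided and adjusted by Benjamini-Hochberg over all genes tested. Scripts were checked on simulated data. No molecular identifiers are described, so errors from reads cover counting only.

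Lengths came from GENCODE 44 on GRCh38 by symbol (17152 of 19222 genes matched). Pseudogenes named after OAZ1 (1), AMD1 (4), SRM (3) and SMS (1) are annotated and not listed in the 1 h table, so shared reads cannot be told apart. The members and lists were chosen with earlier results of these data known. The text names all 9 members, of 24 other polyamine genes those that pass a test or else the 3 with the smallest p in fraction new, the 2 genes most like ODC1, AMD1 and OAZ1, and MYC. Alternatives were other scalings, filters, pseudocounts (0.1 and 1 CPM), read minimums (50 and 500), DESeq2 1.42.0, a length trend (mgcv 1.9.3), a replicate block and leaving out each library. R 4.3.3 and Python 3.11.15 were used, with numpy 2.4.6, pandas 2.3.3 and matplotlib 3.10.9.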

Additional observations from a re-analysis of the deposited data

How the results depend on the processing

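The number of members called for the level, 0 with all 6 libraries, was 0 to 3 with each library left out in turn and 2 with the length trend removed. For fraction new it was 2 when weighted by read count, 2 when centered and 0 to 2 with a library left out. For labeled reads it was 3 when centered and 0 to 4 with a library left out, and for unlabeled reads 0 to 2. In the other alternatives run it was 0, except that SMOX lacked 500 reads per library and was not tested at that minimum. Changes of sign came with spike-in scaling in level for ODC1 (0.48), OAZ1 (0.36), OAZ2 (0.48), SMOX (0.66), SRM (0.27) and SMS (0.40). Their SEs on that scale were 0.44 to 0.48. SMOX also turned in level with the length trend removed (0.098) and over left-out libraries (−0.097 to 0.12), and in unlabeled reads when centered (−0.064) and over left-out libraries (−0.034 to 0.15). In fraction new OAZ1 turned with reads of at least 2 conversions (−0.024) and over left-out libraries (−0.11 to 0.14), and SRM when centered (0.061) and over left-out libraries (−0.16 to 0.051). Unlabeled reads of SAT1 ran from −0.15 to 0.027 over left-out libraries. Apart from the shift in spike-in scaling and the construction of the left-out fits, the cause was not tested. The mean half-life of the middle member, 8.67 h, ran from 7.77 to 9.57 h over left-out libraries and was 8.67 h with 1 new-read rate.

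Libraries with the same replicate number did not deviate together (correlations 0.079, 0.0022 and −0.14 in level, 0.056, 0.0025 and 0.022 in fraction new), so the numbers were not taken to pair the samples. With the replicate block 0 members were called in each of the 4 tests, and the called genes changed from 334 higher and 5 lower to 55 and 1 in level and from 23 and 520 to 40 and 647 in fraction new. Over all genes, DESeq2 called 820 higher and 156 lower in level, the fit without emetine replicate 3 called 1400 and 565, and those without untreated replicates 1, 2 and 3 called 4, 5 and 10 higher.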

Other observations

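The share of reads that cross a splice junction differed between the members. Over all gene reads it was 47.0%, 50.5% and 44.3% in untreated replicates 1, 2 and 3 with s4U. Among members in these libraries it was 71.1% ± 5.74 (SD, n = 3) for SRM, 70.2% ± 1.87 for SMS, 65.1% ± 5.16 for ODC1 and 61.4% ± 5.68 for OAZ1. It was 27.7% ± 2.54 for OAZ2, 26.2% ± 2.35 for AZIN1 and 17.1% ± 2.45 for AMD1, the members with the longest 3′ UTRs (1131, 2259 and 2097 bases). SMOX (46.3% ± 9.83) and SAT1 (38.4% ± 5.51) lay between, with ranges that overlapped each other. The highest untreated SMOX share (56.6%) was just below the lowest of OAZ1 (56.7%). In emetine libraries the highest share of AMD1 was 26.7%, in replicate 3, against 16.5% and 16.6% in the others, and that of AZIN1 was 34.0% in the same library against 24.4% and 23.8%. These shares carry no test.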
